A study of Mus musculus with 4 samples.

Results

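Patrolling monocytes were taken here as barcodes that carried at least 1 unique molecular identifier (UMI) of Csf1r, at least 2 UMIs of Ace and Treml4 together, no Cd3e and at most 1 UMI of Cd79a and Cd79b together. On mm10, Ace spans chr11:105967945-105989964 on the plus strand and Treml4 spans chr17:48264295-48275360 on the plus strand, both protein-coding. Barcodes were kept as cells from 500 UMIs and 250 genes upward if mitochondrial transcripts did not pass 10%, and 461 of the 32876 kept cells met this rule. The rule was set on measured values of these cells, so the levels of Csf1r, Ace and Treml4 are given as a description, with no test. The cells came from mouse liver in 4 single-cell libraries, each made from CD45+ cells of 5 pooled mice after digestion, a Percoll gradient whose mononuclear interface was kept, and a sort. Every mouse had 1 week of tamoxifen, the controls included. There were 2 WT libraries, 1 library of GS(+/delta)Hep mice and 1 of URI(+/delta)Hep mice, in which 1 allele of glutamine synthetase (GS, gene Glul) or of URI (gene Uri1) carried a deletion marked Hep in the label. The labels give no Cre driver, sex or age, and do not say how mice were assigned to pools. Replication was therefore 2 pools for WT and 1 for each deletion. In comparisons of cell types, p-values measure how the difference within a library varies over the 4 pools. In comparisons of groups they rest on the spread of the WT pair, assumed to hold for GS and URI. The libraries are called GS and URI below, and sets of 4 values follow the order WT replicate 1, WT replicate 2, GS, URI. Levels are counts per 1000000 UMIs summed over the cells of a library (CPM).

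Patrolling monocytes, also called nonclassical or Ly6C-low monocytes, are blood monocytes that crawl along the inner wall of vessels, including the liver sinusoids, and take up debris, lipoproteins and immune complexes there. They arise largely from classical, Ly6C-high monocytes, a step that depends on the nuclear receptor Nr4a1 and the transcription factor Cebpb, and they depend on the colony stimulating factor 1 receptor Csf1r for survival. Ace, the angiotensin-converting enzyme, Treml4, a receptor for dying cells, and Cd300e, an activating immunoreceptor, are used to mark them in mice.

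The members numbered 104, 121, 95 and 141 in the 4 libraries, which held 8481, 7453, 7846 and 9096 kept cells. Libraries summed to 24041049 to 51920505 UMIs, and WT replicate 2 was the shallowest, with a median of 2659 UMIs per kept cell against 3763 to 4973 in the others. The members' own medians were 5618.5, 4248, 5044 and 5387 UMIs. The libraries were multiplexed in shared droplets: 41.3% to 44.3% of kept cells had a droplet barcode that also held a kept cell of another library, among them 35, 43, 33 and 45 members. Scrublet, a doublet caller, marked 0, 3, 2 and 3 members as doublets. The deleted genes were also read in the members. The label marks the deletion Hep and does not say whether immune cells carry it, so these levels check no library label. Uri1 was at 19.3, 37.0, 24.3 and 29.9 CPM, and Glul at 77.3, 119, 92.4 and 74.7 CPM. For Uri1 both GS and URI lay within the WT values, and for Glul GS lay within them and URI below both.

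The label matched only part of the cells. Ace, Treml4 and Cd300e did not travel together: 233 members carried an Ace UMI (51, 75, 31 and 76), of which 169 also had Treml4, and the other 228 (53, 46, 64 and 65) entered the rule through Treml4 alone. Cd300e, which the rule did not use, was read in the members with an Ace UMI at 147, 71.9, 33.5 and 124 CPM. Without an Ace UMI it was listed at 0, 6.14, 0 and 0 CPM, the single value above 0 being 1 UMI in 1 cell. The members without Ace were instead rich in neutrophil transcripts. Of 8 neutrophil markers (S100a8, S100a9, Csf3r, Cxcr2, Retnlg, Mmp8, Mmp9 and Ly6g), the median cell without Ace gave 11.4%, 7.25%, 9.91% and 9.79% of its UMIs to them, against 0.0624%, 0.0920%, 0.0762% and 0.0826% in cells with Ace. At a limit of 1% of UMIs, 207 of the 228 cells without Ace and 26 of the 233 cells with Ace lay above it. Only 14 members lay between 0.5% and 2%, so the members fell into separate classes at this limit.

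**Figure D1:**
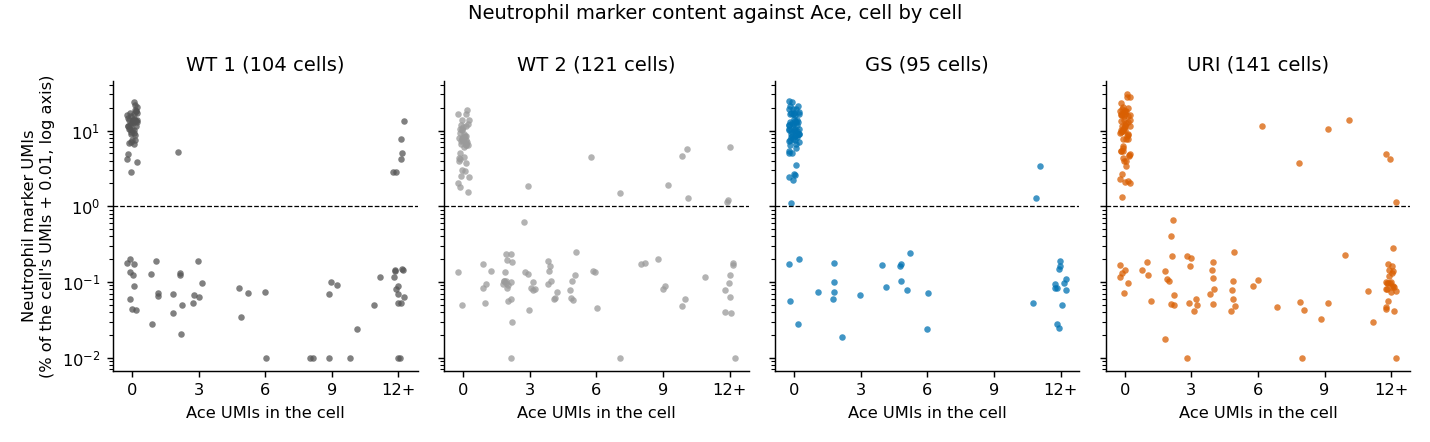
Each point is 1 member; the horizontal axis gives its Ace UMIs (12 or more drawn at 12, points shifted sideways at random for legibility) and the vertical log axis the percent of its UMIs in the 8 neutrophil markers plus 0.01, with the 1% limit dashed. In all 4 panels the cells with 0 Ace UMIs sit mostly above the limit (207 of 228) and those with Ace mostly below it (207 of 233).

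Csf3r, the granulocyte colony stimulating factor receptor, stood at 7554, 7483, 8041 and 5999 CPM in members without Ace and at 1282, 842, 637 and 768 CPM in members with Ace. Cxcr2, the neutrophil chemokine receptor, was at 1907, 1215, 1878 and 1331 CPM without Ace and at 152, 121, 90.5 and 69.7 CPM with it. S100a8, a calgranulin subunit, was at 38351, 26487, 38181 and 48544 CPM without Ace and at 3656, 1730, 651 and 3687 CPM with it. Cells of the same libraries that were not members and gave at least 5% of UMIs to the neutrophil markers had more, with S100a8 at 64241, 45320, 57801 and 74927 CPM. Adgre4, an adhesion receptor of the F4/80 family, ran the other way, at 691, 390, 480 and 524 CPM with Ace and 107, 24.6, 25.1 and 41.3 CPM without. In none of these genes did the cells with and without Ace overlap over the 4 libraries. These values describe cells divided by a gene of the rule and carry no test.

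**Figure D2:**
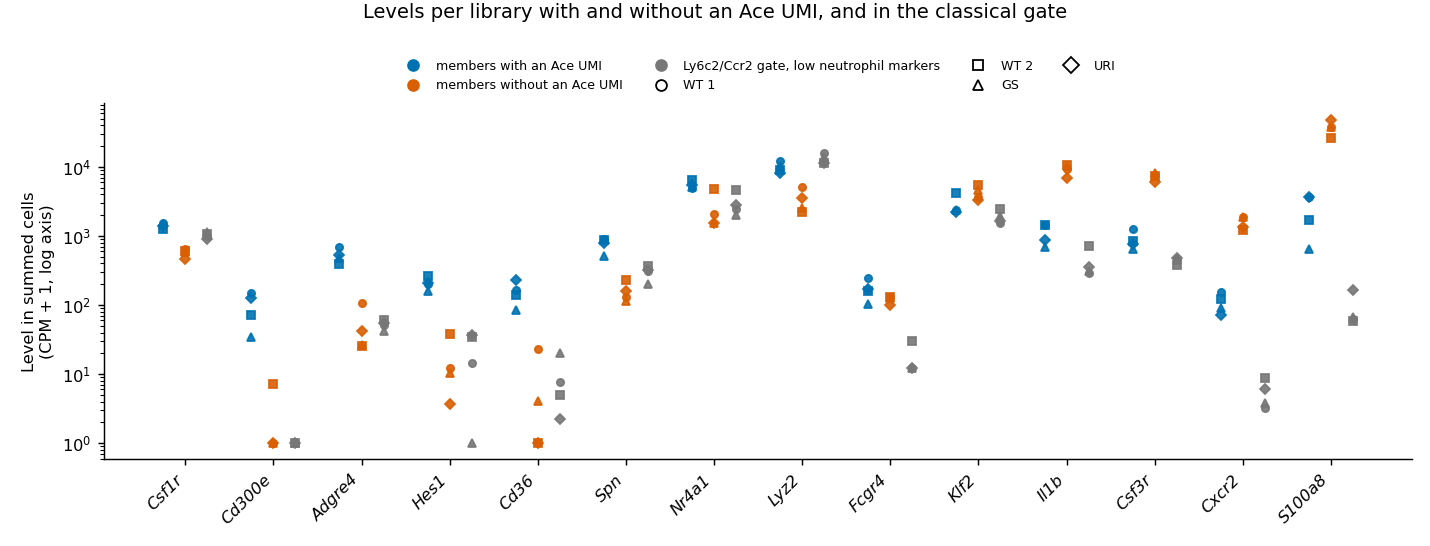
Levels of 14 genes in summed cells (CPM + 1, log axis): members with an Ace UMI (blue), members without (orange) and Ly6c2 or Ccr2 positive cells with under 1% neutrophil marker UMIs (grey), 1 symbol per library. Cd300e, Adgre4, Hes1 and Cd36 are highest in the blue points, while Il1b, Csf3r, Cxcr2 and S100a8 are highest in the orange points, for example S100a8 at 26487 to 48544 CPM.

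Treml4 and Csf1r were read in many neutrophil-marker cells of these libraries. Of 577, 849, 545 and 534 cells with at least 5% neutrophil marker UMIs, members included, 32.2%, 25.7%, 37.1% and 34.5% had a Treml4 UMI and 49.2%, 39.1%, 58.3% and 50.9% a Csf1r UMI. An Ace UMI was seen in 0.693%, 0.471%, 0% (0 of 545, upper 95% bound 0.675%) and 0.562% of them. Cells with Cd3e, a T cell gene, served as a reference: 1.04%, 0.960%, 1.43% and 1.79% had Treml4, 2.23% to 3.32% had Csf1r and 0.390% to 1.05% had Ace. Their median depths were 4565, 3414, 5113 and 5923.5 UMIs, against 3644, 2821, 4091 and 4730.5 UMIs in the neutrophil-marker cells. Treml4 and Csf1r were thus read in neutrophil-marker cells far above the share in Cd3e cells, and Ace was not above it. Single Cd3e cells held up to 17, 10, 26 and 42 Ace UMIs, so this reference may hold more than free RNA. Whether Ace in neutrophil-marker cells exceeds free RNA alone was not tested. Whether the Treml4 signal in those cells comes from their own transcripts was not tested.

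Across 3820 genes of at least 50 CPM, 438 were over 2-fold higher with Ace in all 4 libraries and 257 over 2-fold higher without it, on a scale of CPM plus 2. Those higher with Ace were led by Slc12a2, a sodium, potassium and chloride cotransporter, then Hspa1b, Cbfa2t3, Mt1 and Eno3. Cd36, a scavenger receptor for fatty acids and oxidised lipoproteins, Hes1, a Notch target repressor, and Adgre4 were among those that followed. Cbfa2t3 was at 261, 269, 188 and 277 CPM with Ace. In Ly6c2 or Ccr2 positive cells with under 1% neutrophil marker UMIs it was at 265, 259, 222 and 174 CPM. Mt1 was lower with Ace than in those cells in all 4 libraries. Slc12a2, Hspa1b, Eno3, Cd36, Hes1 and Adgre4 were higher. Those higher without Ace were led by Scrg1, Ly6g, Retnlg, Mmp9 and Lcn2, of which Mmp9 is the gelatinase of neutrophil granules. The cells just inside and just outside the rule resembled the second set. With exactly 2 UMIs of Ace and Treml4, 12.1%, 19.5%, 10.3% and 17.6% carried Ace, with exactly 1 UMI 5.26%, 13.9%, 8.16% and 16.0%, and with 3 or more 66.2%, 83.8%, 42.4% and 74.4%. Cd300e was at 122, 73.3, 21.8 and 113 CPM at 3 or more UMIs and at 0 CPM in all 4 libraries at exactly 2. Because of this, the comparisons with the classical gate and between groups are given for all members, as the rule has it, and again for the 228 members with under 1% neutrophil marker UMIs (53, 67, 33 and 75), called low-neutrophil members. That limit was chosen after the values were seen.

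Markers of the other cell types the sort could hold were summed in the members and in all other kept cells. The 7 Kupffer cell markers, of the resident liver macrophage, summed to 1.49, 0, 0 and 0 CPM, with 6 of 7 (Clec4f, Vsig4, Timd4, Cd5l, Marco and Folr2) at 0 in every library. Summed markers reached at most 3.37 CPM for platelets, 4.46 CPM for liver endothelium, 1.68 CPM for red cells and basophils, 58.9 CPM for B cells and 84.3 CPM for T cells. Conventional dendritic cell markers summed to 28.3 to 45.4 CPM, with Xcr1 and Cd209a at 0. In the other kept cells the sums were 1497 to 2028 CPM for B cells, 2126 to 4242 CPM for T cells and 405 to 500 CPM for conventional dendritic cells. The members' sums overlapped those of the other cells for plasmacytoid dendritic cells (149 to 298 CPM against 191 to 239 CPM, with Klk1 and Cox6a2 at 0 in members), for plasma cells (288 to 401 CPM against 330 to 452 CPM) and for hepatocytes (2.13 to 56.5 CPM against 4.02 to 24.6 CPM). The 7 natural killer cell markers summed to 16.4, 150, 214 and 65.1 CPM and were highest in GS. Cx3cr1, the fractalkine receptor that is often used to mark patrolling monocytes, had no UMI in any library and gives no information here.

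Of 22 genes listed as patrolling identity outside the rule, 21 were tested against classical monocytes below and 19 rose, so promoters of this list are shown first. RefSeq held a promoter of 18 of the 22 genes on GRCm38.p6 (mm10), 19 promoters in all, each as the 250 bases before the start. Those of Adgre4, Ear2, a secreted ribonuclease, Eno3, a glycolytic enolase, and Spn, the sialophorin CD43, are printed 5′ to 3′ because these genes rose in the members and the windows lie outside the annotated transcripts. Capitals mark matches to the motifs searched on both strands.
Adgre4 promoter, chr17:55749734-55749983, plus strand: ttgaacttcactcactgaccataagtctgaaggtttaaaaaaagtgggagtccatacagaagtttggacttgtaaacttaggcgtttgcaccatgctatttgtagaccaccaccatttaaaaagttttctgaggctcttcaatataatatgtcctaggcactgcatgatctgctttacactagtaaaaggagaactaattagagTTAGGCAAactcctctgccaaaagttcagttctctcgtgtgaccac
Ear2 promoter, chr14:44102404-44102653, plus strand: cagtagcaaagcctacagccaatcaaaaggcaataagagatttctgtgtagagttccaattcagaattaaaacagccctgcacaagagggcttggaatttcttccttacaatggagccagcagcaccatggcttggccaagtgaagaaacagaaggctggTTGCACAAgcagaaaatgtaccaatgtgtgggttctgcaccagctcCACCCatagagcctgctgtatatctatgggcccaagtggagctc
Eno3 promoter, chr11:70656926-70657175, plus strand: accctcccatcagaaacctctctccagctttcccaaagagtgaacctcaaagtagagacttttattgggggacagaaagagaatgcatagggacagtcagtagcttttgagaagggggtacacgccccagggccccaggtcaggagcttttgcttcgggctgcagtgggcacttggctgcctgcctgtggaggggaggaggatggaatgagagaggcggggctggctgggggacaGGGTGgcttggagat
Spn promoter, chr7:127137824-127138073, minus strand: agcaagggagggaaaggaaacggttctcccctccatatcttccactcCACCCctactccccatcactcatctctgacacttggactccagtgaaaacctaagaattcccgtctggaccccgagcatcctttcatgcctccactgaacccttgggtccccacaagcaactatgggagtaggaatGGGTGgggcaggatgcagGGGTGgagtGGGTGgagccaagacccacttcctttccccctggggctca
The C/EBP motif TTGCNNAA was found in 2 of the 19 promoters (10.5%), those of Ear2 and Adgre4, against 9.56% of all 32851 RefSeq promoters of this length. The KLF core CACCC was in 14 of 19 (73.7%) against 52.0%, and the PU.1 core GAGGAA in 7 of 19 (36.8%) against 23.3%. The Nr4a1 half-site AAAGGTCA was in 0 of 19 against 1.34%. The letters of none of the 4 motifs contain those of another. A match describes letters in this window and is not a binding site.

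The members' share of kept cells was 1.23% (104 cells, exact Clopper-Pearson 95% interval 1.00% to 1.48%) and 1.62% (1.35% to 1.94%) in WT. It was 1.21% (0.981% to 1.48%) in GS and 1.55% (1.31% to 1.83%) in URI. GS lay just below and URI within the WT values, and both intervals overlapped those of WT. No test is given, because no permutation of 1 library against 2 can pass 0.05, and intervals cover counting error only. With WT as the mean of 2 libraries, the log2 ratio was -0.23 for GS and 0.12 for URI, both under the WT spread of 0.29 (SD of log2 share).

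Divided by Ace, the shares went apart. Members with an Ace UMI made up 0.601% (0.448% to 0.790%) and 1.01% (0.792% to 1.26%) of kept cells in WT, 0.395% (0.269% to 0.560%) in GS and 0.836% (0.659% to 1.04%) in URI, so GS was lowest and below both WT libraries, with an interval that overlapped that of WT replicate 1. Members without Ace made up 0.625%, 0.617%, 0.816% and 0.715%, and GS was highest. The log2 ratio of GS to the WT mean was -1.02 with Ace, 0.39 without Ace and -0.89 for low-neutrophil members among low-neutrophil kept cells, and that of URI was 0.06, 0.20 and 0.02. The 307 cells of a classical monocyte gate (Csf1r, at least 2 UMIs of Ly6c2 and Ccr2, no Ace, Treml4 or Siglech) were also scarcest in GS, at 0.790%, 1.38%, 0.523% and 1.06%. Per classical cell there were 0.761, 0.728, 0.756 and 0.792 members with Ace, a ratio that differed little between the libraries. Per classical cell there were 0.791, 0.447, 1.56 and 0.677 members without Ace, with GS highest. When every cell was first thinned to 1000 UMIs and then gated, 31, 24, 22 and 44 members remained (0.403%, 0.357%, 0.310% and 0.529%), and URI was above both WT libraries.

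**Figure D3:**
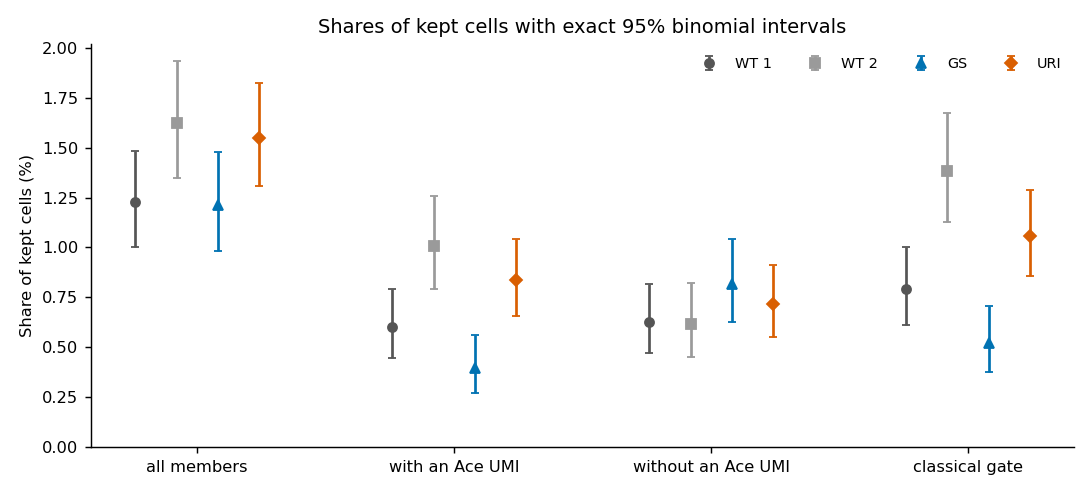
Share of kept cells (%) in each library for all members, members with and without an Ace UMI, and the classical gate, with exact 95% binomial intervals as bars. GS is the lowest point with an Ace UMI (0.395%) and in the classical gate (0.523%) and the highest without one (0.816%).

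The members were compared with the classical gate, its nearest cell type, to ask what else sets patrolling monocytes apart in the same livers. UMIs were summed per library and gate and tested with edgeR's quasi-likelihood test with the library as a block and Benjamini-Hochberg adjustment at 0.05, leaving out the genes of both gates. Of 7745 genes, 878 were higher (11.3%) and 407 lower (5.26%) in the members. Among low-neutrophil cells of both gates, with the 8 neutrophil markers left out, 381 of 7192 were higher (5.3%) and 170 lower (2.36%). Members with an Ace UMI against the whole classical gate gave 375 higher (5.07%) and 279 lower (3.77%) of 7399 genes. The fits on all and on low-neutrophil cells shared 295 higher genes, 33.6% of the first list and 77.4% of the second, and 114 lower genes, 28.0% and 67.1%. Of the 878 higher genes, 111 had the opposite sign among low-neutrophil cells and 90 could not be tested there. The neutrophil markers summed to 22823 to 53284 CPM in the members and 15138 to 52666 CPM in the classical gate. Log2 fold changes (members over classical) are printed with their standard error.

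**Figure D4:**
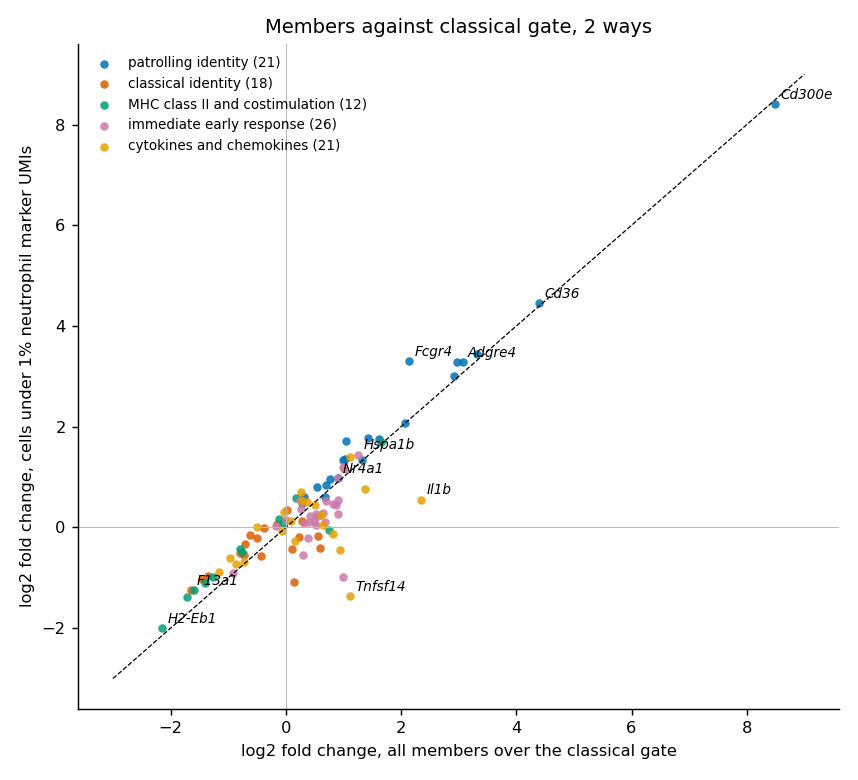
Log2 fold change of members over the classical gate for genes of 5 lists, from all members (horizontal) and from cells under 1% neutrophil marker UMIs (vertical), with the line of equality dashed. Patrolling identity genes (blue) lie near the line and above 0, whereas Il1b (2.35 and 0.55) and Tnfsf14 (1.11 and -1.36) lie below it.

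Patrolling identity genes were higher in the members. Of 22 listed, 21 were tested, 19 rose and none fell (median log2 1.33, against -0.02 over all genes). Among low-neutrophil cells 21 of 21 rose (median 1.71, against 0.00). The list was drawn up to mark the cell type that the rule selects, so this direction is no independent evidence. Cd300e had 172 UMIs in the members, at 87.7, 53.9, 16.2 and 75.8 CPM, and 0 UMIs in the classical gate, which makes it at least 51.6-fold higher against a floor of 3 UMIs over the gate. It was lowest in GS but above the gate in all 4 libraries. Adgre4 was at 457, 289, 245 and 337 CPM in members and 41.3, 51.8, 39.1 and 43.2 CPM in the gate, with no overlap (3.07 ± 0.16, edgeR adjusted p = 9.90e-09).

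Fcgr4, the activating Fc receptor for IgG2 antibodies, was at 198, 151, 115 and 144 CPM against 37.6, 46.6, 19.5 and 45.2 CPM, again without overlap (2.14 ± 0.18, edgeR adjusted p = 7.91e-07). Among low-neutrophil cells its fold change was 3.30 ± 0.26, with 11.1 to 29.4 CPM in the gate. Itgal, the alpha chain of the integrin LFA-1 on which crawling depends, was at 1651, 1545, 1436 and 1316 CPM against 633, 799, 620 and 618 CPM (1.33 ± 0.11, edgeR adjusted p = 7.29e-07). All member libraries lay above all gate libraries. Spn was at 584, 697, 308 and 550 CPM against 355, 349, 208 and 284 CPM, so the GS members lay within the range of the gate although above its own library's gate (0.99 ± 0.12, edgeR adjusted p = 1.73e-05).

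Cd36 was at 109, 99.3, 42.1 and 140 CPM in members and 5.64, 3.45, 17.1 and 0.982 CPM in the gate (4.40 ± 0.44, edgeR adjusted p = 3.39e-06), with no overlap. The largest rises past the threshold, at a mean of at least 20 CPM and the same direction in every library, were Cd300e, Olfm4 (5.28), Slc12a2 (5.20), Cd36 (4.40), Cd300ld5 (4.16), Ear2 (3.32), Adgre4 (3.07), Eno3 (2.97), Hes1 (2.91), Sycp2 (2.86), Tgm2 (2.79) and Rufy4 (2.66). Their order changed little among low-neutrophil cells for Slc12a2 (5.19), Cd300ld5 (4.69), Ear2 (3.45), Eno3 (3.28), Hes1 (3.00) and Tgm2 (2.54), which rose there too. Olfm4, Sycp2 and Rufy4 were too low to be tested among low-neutrophil cells. Olfm4, a neutrophil granule gene, stood at 321 CPM in URI against 4.86 to 20.2 CPM in the other libraries. Sycp2 was at 17.4, 6.96, 0 and 8.71 CPM with Ace and 85.2, 30.7, 110 and 107 CPM without. Rufy4 was at 24.9, 16.2, 0 and 1.74 CPM with Ace and 104, 104, 100 and 63.4 CPM without. Sycp2 and Rufy4 were thus higher in the members without Ace in every library. Probes for near-identical family members, such as the Cd300ld genes, Hspa1a with Hspa1b, or the Bcl2a1 genes, may share signal, so single members of these families are uncertain.

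Genes of classical identity fell in part. Of 20 tested, 10 fell and 2 rose (median -0.41), and among low-neutrophil cells 8 of 18 fell and none rose (median -0.36). F13a1, a clotting factor subunit of classical monocytes, was at 503, 231, 368 and 304 CPM against 1345, 787, 1790 and 1072 CPM (-1.65 ± 0.13, edgeR adjusted p = 4.02e-07), with no overlap. Fn1, fibronectin, was at 2164, 1717, 1899 and 1192 CPM against 6217, 3859, 5888 and 4074 CPM (-1.36 ± 0.11). Vcan, a matrix proteoglycan, was lower as well (-1.46 ± 0.19). Chil3 and Lyz2, the latter encoding lysozyme, fell in all members (-0.63 and -0.51), but among low-neutrophil cells their values of -0.15 and -0.21 did not pass.

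Other falls that met the same limits were led by Cd209a, a lectin of monocyte-derived and dendritic cells. It had 108 UMIs in the classical gate and 0 UMIs in the members, at least 40.0-fold lower against a floor of 3 UMIs. Prtn3 (-3.15), Igfbp4 (-2.88), Flt3 (-2.38), a dendritic cell growth factor receptor, H2-Eb1 (-2.14), H2-Aa (-1.72), Clec10a (-1.71), Cd300lg (-1.70) and Cd7 (-1.69) fell in both fits. The granule genes Ngp (-2.25), Camp (-2.19) and Serpinb1a (-1.73) fell in all members only. Among low-neutrophil cells Ngp was at 0.01 ± 0.58, Camp was not tested and Serpinb1a had an edgeR adjusted p of 0.0944.

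Of 31 myeloid transcription factors tested, 11 rose and 2 fell, and among low-neutrophil cells 12 rose and 3 fell. Nr4a1 was at 3794, 5981, 3229 and 3942 CPM in members and 2194, 4256, 1819 and 2249 CPM in the gate, higher in each library but overlapping across libraries (0.90 ± 0.11, edgeR adjusted p = 2.30e-05). Hes1 was at 125, 199, 81.0 and 128 CPM against 11.3, 29.3, 4.88 and 27.5 CPM, with no overlap (2.91 ± 0.23). Tcf7l2, a Wnt pathway factor, rose by 1.97 ± 0.27, Pparg, a lipid-sensing nuclear receptor, by 2.81 ± 0.59, Pou2f2 by 0.77 ± 0.15 and Cebpb by 0.67 ± 0.11. Klf2, which restrains activation in monocytes, rose by 0.86 ± 0.10, and by 0.55 ± 0.10 among low-neutrophil cells. Irf8 and Irf4, factors of dendritic and monocyte progenitor fate, fell (-0.82 ± 0.14 and -1.17 ± 0.24). Notch1 differed between the fits: 0.11 ± 0.15 in all members, where it did not pass, and -0.85 ± 0.17 among low-neutrophil cells, where it fell.

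Of 23 genes of adhesion and crawling, 11 rose and 1 fell, and among low-neutrophil cells 9 rose and 1 fell. Itgax, the CD11c integrin chain, rose by 2.07 ± 0.28, Ceacam1, an adhesion receptor, by 1.03 ± 0.13, Rap1b, a GTPase that activates integrins, by 0.62 ± 0.11 and Icam1, a ligand of LFA-1, by 0.52 ± 0.12. All 4 rose among low-neutrophil cells too, by 2.08, 1.35, 0.62 and 0.77. Jaml, a junctional adhesion molecule shared with neutrophils, rose in all members (1.27 ± 0.18) and was at -0.31 ± 0.25 among low-neutrophil cells, where it did not pass.

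Of 31 Fc and paired immunoreceptor genes tested, 19 rose and 1 fell, and among low-neutrophil cells 16 rose and none fell. Lilra5, an activating receptor, was at 37.2, 10.1, 17.8 and 22.4 CPM against 0, 3.45, 0 and 0 CPM, with no overlap (4.61 ± 0.75, edgeR adjusted p = 0.000366). Cd300ld rose by 1.95 ± 0.15 and 2.13 ± 0.24 in the respective fits, and the kinase Fgr rose by 0.80 in all members. Trem1 (2.13) and Clec4d (1.84), receptors also found on neutrophils, rose in all members. Among low-neutrophil cells Trem1 rose by 0.95 and Clec4d was at -0.08 ± 0.16. Fcgr1, the high-affinity receptor of classical monocytes, was the gene that fell (-0.55).

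Of 17 growth factor receptor and survival genes, 7 rose and 1 fell, against 5 and 1 of 16 among low-neutrophil cells. Tnfrsf1b, a tumour necrosis factor receptor, rose by 0.70 ± 0.11, Il10ra by 0.55 ± 0.11 and Bcl2a1b, an inhibitor of cell death, by 2.10 ± 0.29, all of them in both fits. Of 19 genes of complement, scavenging and lipid handling, 8 rose and 3 fell, against 10 and 2 among low-neutrophil cells. Fabp4, a fatty acid binding protein, was at 19.3, 33.7, 4.86 and 40.6 CPM against 0, 1.73, 0 and 0 CPM (5.75 ± 0.70, edgeR adjusted p = 2.56e-05). GS had the lowest level of Fabp4 but lay above every gate value. Apoe rose by 0.41 ± 0.13 and 0.64 ± 0.09 in the respective fits and Cfb, complement factor B, by 0.77 ± 0.24 and 1.10 ± 0.23. The cholesterol exporter Abcg1 rose by 1.04 and 0.88.

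Of 22 cytokine and chemokine genes tested, 7 rose and 3 fell (median 0.33), and among low-neutrophil cells 4 of 21 rose and 2 fell (median 0.05). Il1b was at 4616, 4014, 5656 and 3251 CPM in members and 1321, 1767, 671 and 498 CPM in the gate (2.35 ± 0.23, edgeR adjusted p = 2.55e-06). Without Ace it was at 9331, 10804, 10305 and 7013 CPM, and with Ace at 1451, 1449, 684 and 873 CPM. Among low-neutrophil cells Il1b rose by 0.55 ± 0.12. Tnfsf14, a tumour necrosis factor ligand, rose in all members (1.11) and fell among low-neutrophil cells (-1.36 ± 0.40). Ccl9, a monocyte chemokine, fell in both fits (-0.96 and -0.60).

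Of 18 chemoattractant receptors, 7 rose and 1 fell, against 5 and 1 of 15 among low-neutrophil cells. S1pr5, a sphingosine phosphate receptor needed for patrolling monocytes to leave the bone marrow, was at 112, 187, 60.0 and 101 CPM against 35.7, 31.1, 19.5 and 9.82 CPM, with no overlap (2.52 ± 0.25, edgeR adjusted p = 2.55e-06). Cmklr1, the chemerin receptor, rose by 0.70 and 1.14 and Cxcr4, the receptor for marrow retention, by 1.10 and 0.72. Ccr1 rose in all members (1.00 ± 0.13) and fell among low-neutrophil cells (-0.94 ± 0.22), and it was at 62.6 to 104 CPM with Ace and 689 to 900 CPM without.

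Of 12 genes of MHC class II and costimulation, 7 fell and 2 rose (median -0.78), and among low-neutrophil cells 6 fell and 1 rose (median -0.45). H2-Ab1, a class II beta chain, was at 41.6, 321, 77.8 and 143 CPM against 160, 878, 374 and 205 CPM, lower in each library but overlapping across them (-1.27 ± 0.20, edgeR adjusted p = 0.000244). Its master regulator Ciita fell by 1.58 and the invariant chain Cd74 by 0.76 on the log2 scale. Cd274, the inhibitory ligand PD-L1, rose and was at 74.4, 101, 85.9 and 124 CPM against 3.76, 31.1, 58.6 and 50.1 CPM, with no overlap (1.66 ± 0.27). Of 20 pattern recognition genes 6 rose and none fell, against 4 and 1 of 17 among low-neutrophil cells. Tlr7, an endosomal receptor for single-stranded RNA, rose by 0.67 ± 0.14 and 0.95 ± 0.14, and Nod1, a sensor of bacterial cell wall, by 0.96 ± 0.14 and 1.15 ± 0.15.

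Of 24 type I interferon response genes, 3 rose and 2 fell, and among low-neutrophil cells 2 of 23 rose and none fell, against 11.3% and 5.3% of all genes that rose in the respective fits. Irf7 rose by 0.43 ± 0.13 and 0.50 ± 0.13. Of 26 immediate early genes, 17 rose and none fell (median 0.54), against 8 and 1 among low-neutrophil cells (median 0.25). Hspa1b, a heat shock protein, was at 352, 2423, 585 and 664 CPM in members against 207, 1255, 444 and 142 CPM, with WT replicate 2 highest in both gates (1.25 ± 0.20). Cell cycle genes were nearly absent: 3 of 16 were tested, 0 rose and 1, Mcm3, fell, and none passed among low-neutrophil cells. Of 15 genes of glutamine and glutamate handling, Slc7a11, the cystine and glutamate exchanger, rose in all members (2.22 ± 0.27) and was at 0.15 ± 0.54 among low-neutrophil cells. It was at 22.4 to 36.9 CPM with Ace and 189 to 356 CPM without.

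A second comparison set the members against a dendritic cell gate of 10, 24, 17 and 11 cells (Flt3 with at least 2 UMIs of Xcr1, Clec9a, Cd209a, Zbtb46, Siglech and Ccr9). Of 7466 genes, 1486 were higher (19.9%) and 1177 lower (15.8%) in the members by edgeR's quasi-likelihood test. With the members limited to those with an Ace UMI, 995 of 6314 genes were higher and 851 lower. The values below are for all members, the neutrophil-rich cells without Ace included. Of 21 patrolling identity genes 19 rose (median 3.73, or 3.43 with genes at 0 UMIs on 1 side set to their bound), and of 20 classical identity genes 17 rose and 1 fell. Adgre4 had no UMI in the dendritic gate and was at least 58.9-fold higher in the members against a floor of 3 UMIs. Klk1 and Cox6a2, genes of plasmacytoid dendritic cells, had 0 UMIs in members and 139 and 68 in the gate, at least 248-fold and 121-fold lower. Of 15 MHC class II and costimulation genes 10 fell and 5 rose, among them H2-Eb1 (-5.19) and H2-Aa (-4.82) on the falling side. The dendritic gate holds few cells and is led by plasmacytoid markers, so conventional dendritic cells carry little of this comparison.

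GS members were compared with WT members to ask whether the deletion altered these cells. The fit used all 4 libraries, with 1 residual degree of freedom from the WT pair, and the lone GS library was assumed to vary like WT. Of 7728 genes none passed by edgeR's quasi-likelihood test (0% called), 228 had an unadjusted p under 0.05, and DESeq2 called 0, with 23 under 0.05. Among low-neutrophil members edgeR called 0 of 7090, with 222 under an unadjusted 0.05, and the other tool was not run there. On simulated data of these libraries the test recovered 1% of genes changed 2-fold and 44% of those changed 4-fold. All differences below are therefore values, not calls. Of all genes, 36.3% lay below both WT values and 27.2% above both.

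Cd300e was at 16.2 CPM in GS members against 87.7 and 53.9 CPM in WT and 75.8 CPM in URI, below every other library (-2.06 ± 0.58, unadjusted p = 0.00116, edgeR adjusted p = 0.732). GS also had the fewest members with Ace, and within those Cd300e was at 33.5 CPM against 147 and 71.9 CPM, read from 10 UMIs in 5 cells. Of 21 patrolling identity genes 14 lay below both WT values and 3 above (median -0.47). In members with Ace the counts were 11 and 2 (median -0.34), where 30.8% of all 7176 genes lay below both and 33.2% above. The lower share of cells with Ace and the lower identity levels of the summed members went together, and in such sums fewer cells of a type and less RNA per cell cannot be told apart.

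Type I interferon response genes had the lowest median of the 14 lists with more than 1 gene tested in GS. Of 24 tested 16 lay below both WT values and none above (median -0.50), where 36.3% and 27.2% of all genes did. In members without Ace 5 of 24 lay below both and 1 above (median -0.34), and the share over all genes was not computed there. In members with Ace 17 of 22 lay below both and none above (median -0.88, against -0.02 over all genes), and in low-neutrophil members 13 of 22 lay below and 2 above (median -0.44), where 31% of all genes lay below and 31.7% above. Ifit3, an interferon-induced antiviral protein, was at 135 and 80.8 CPM in WT, 37.3 CPM in GS and 116 CPM in URI members (-1.47 ± 0.48, unadjusted p = 0.00448, edgeR adjusted p = 1.00). Its log2 value was -0.45 ± 0.54 in low-neutrophil members. In members with Ace, Irf7, the factor that amplifies the response, was at 691 and 793 CPM in WT and 366 CPM in GS, Isg15 at 137 and 139 CPM and 53.7 CPM, and Ifi27l2a at 462 and 371 CPM and 184 CPM. GS was below both WT libraries in each of these 3 genes, with edgeR adjusted p of 0.999. The GS sum with Ace rests on 31 cells.

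The other genes named for GS by the rule for uncalled genes were Fam98c, at 104 and 106 CPM in WT and 27.5 CPM in GS, Acss1, at 55.0, 104 and 21.1 CPM, and Alyref, at 77.3, 121 and 32.4 CPM. Above WT were Ngp (20.8 and 16.8 against 98.8 CPM), Ly6g (55.0 and 20.2 against 123 CPM), Cstdc4 (126 and 43.8 against 293 CPM), Rgs1, a brake on G protein signalling (16.4 and 57.2 against 117 CPM), and Arsb, a lysosomal sulfatase (29.7 and 45.4 against 109 CPM). Arsb was at 171 CPM in GS members with Ace against 29.8 and 41.7 CPM in WT. Rgs1 was at 40.2 CPM in GS members with Ace against 27.3 and 48.7 CPM in WT, within the WT values, and its fold change was 0.06 in low-neutrophil members and -0.04 without shared droplet barcodes. Ngp and Ly6g are neutrophil genes and in GS members with Ace were at 3.35 and 0 CPM. In members without Ace 4 of 5055 genes passed: Xcl1 and Rgs1 rose (0.0396%) and Hspa1a and F10 fell (0.0396%). The 39 UMIs of Xcl1, a lymphocyte chemokine, lay in 4 of 64 GS cells, and the natural killer receptor Ncr1 had 27 UMIs in 2 of them.

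URI members were compared with WT in the same way. Of 7728 genes 13 rose (0.168%) and none fell by edgeR's quasi-likelihood test, 150 had an unadjusted p under 0.05, and DESeq2 called 4. The largest rises at a mean of at least 20 CPM were Camp, at 2.97, 0, 0 and 425 CPM (7.93 ± 0.61, edgeR adjusted p = 5.94e-11), Ltf, at 4.46, 1.68, 1.62 and 744 CPM (7.82 ± 0.57), Ngp, at 20.8, 16.8, 98.8 and 1952 CPM (6.69 ± 0.47), Stfa3 (4.86 ± 0.62) and Olfm4 (4.02 ± 0.42). These encode granule and cytosolic proteins of immature neutrophils, and URI was the highest library for each. They came from few cells without Ace: 5 of 65 such URI cells had at least 5 Ltf UMIs, 1 cell held 419 of 696 Ltf UMIs, and 5 cells held 95.6% of the 1797 Ngp UMIs. In URI members with Ace, Ltf was at 1.74 CPM and Camp at 10.5 CPM. URI was also highest outside the members. The classical gate had Ngp at 222, 316, 281 and 8036 CPM and Camp at 122, 48.3, 2.44 and 1457 CPM. Ltf had a UMI in 0.838%, 0.760%, 0.629% and 5.90% of Cd3e cells. These rises are therefore not particular to the members. Tested in members without Ace alone, 9 of 5055 genes rose (0.178%) and 1 fell (0.0198%), which was Cxcl10, an interferon-induced chemokine (-3.57 ± 0.75, edgeR adjusted p = 0.00111).

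Ddx3y and Eif2s3y, genes of the Y chromosome, rose too. Ddx3y was at 16.4, 30.3, 25.9 and 158 CPM in members (2.77 ± 0.46, edgeR adjusted p = 0.00106). Among members with Ace it had a UMI in 1 of 51, 1 of 75, 1 of 31 and 31 of 76 cells. The labels give no sex, so sex of the pooled mice and genotype cannot be told apart for any URI difference. The other genes that rose were Adpgk, Sdc4, Stfa2, Syne1, Rgs1 and Itgb2l, by 2.12 to 4.58 on the log2 scale.

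Among low-neutrophil members 13 of 7090 genes rose in URI (0.183%) and 1 fell (0.0141%). Cxcl2, a neutrophil-attracting chemokine, was at 211, 490, 950 and 2393 CPM (2.75 ± 0.42, edgeR adjusted p = 1.79e-07). Egr1, an immediate early factor, was at 270, 393, 646 and 1486 CPM (2.15 ± 0.43, edgeR adjusted p = 0.000573). Tnfaip3, the ubiquitin editor A20 that restrains NF-kB, was at 174, 310, 520 and 1058 CPM (2.11 ± 0.43, edgeR adjusted p = 0.00109). In all of these URI was highest and GS also lay above both WT libraries, without passing there. These levels rest in part on few cells. Among members with Ace, the 5 highest cells held 59.2%, 43.2%, 82.7% and 59.7% of the Egr1 UMIs, and 1 URI cell held 217 of 785. For Cxcl2 the 5 highest held 75.7%, 66.1%, 78.3% and 38.5%. Such shares were not computed for low-neutrophil members. Ccl3, Nfkbiz, Maff, Hcar2, Acod1, Spic, Sdc4, Rgs1, Ddx3y and Eif2s3y rose as well. Siglec1, the sialoadhesin CD169, which binds sialylated ligands, was the gene that fell, at 133, 113, 64.6 and 27.1 CPM (-2.17 ± 0.55, edgeR adjusted p = 0.0439).

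These calls did not hold when the members were chosen by Ace in place of the neutrophil limit: none of 7176 genes passed in either direction (0%), 124 had an unadjusted p under 0.05, and the lowest edgeR adjusted p was 1.00. Cxcl2 and Siglec1 kept the order of their levels there, with Cxcl2 at 276, 835, 1207 and 2134 CPM (1.90 ± 0.66) and Siglec1 at 117, 90.4, 60.4 and 27.9 CPM (-1.90 ± 0.44). Under the neutrophil limit Siglec1 was at -2.17 ± 0.55, so its standard error was no larger with Ace. Ddx3y was at 7.46, 2.32, 3.35 and 167 CPM with Ace (log2 5.02) and did not pass either. The lack of calls in that fit therefore does not show that the differences were absent. Ccl24, an eosinophil chemokine, was at 48.8 CPM in URI and 0 CPM elsewhere among members with Ace, but 27 of its 28 UMIs were in 1 cell. It was named after its values were seen. The uncalled genes with the smallest p below WT, beside Siglec1, were Nr4a2 (109 and 192 CPM in WT, 43.8 CPM in URI), Vamp1, Lsr and Trappc3 in all members.

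**Figure D5:**
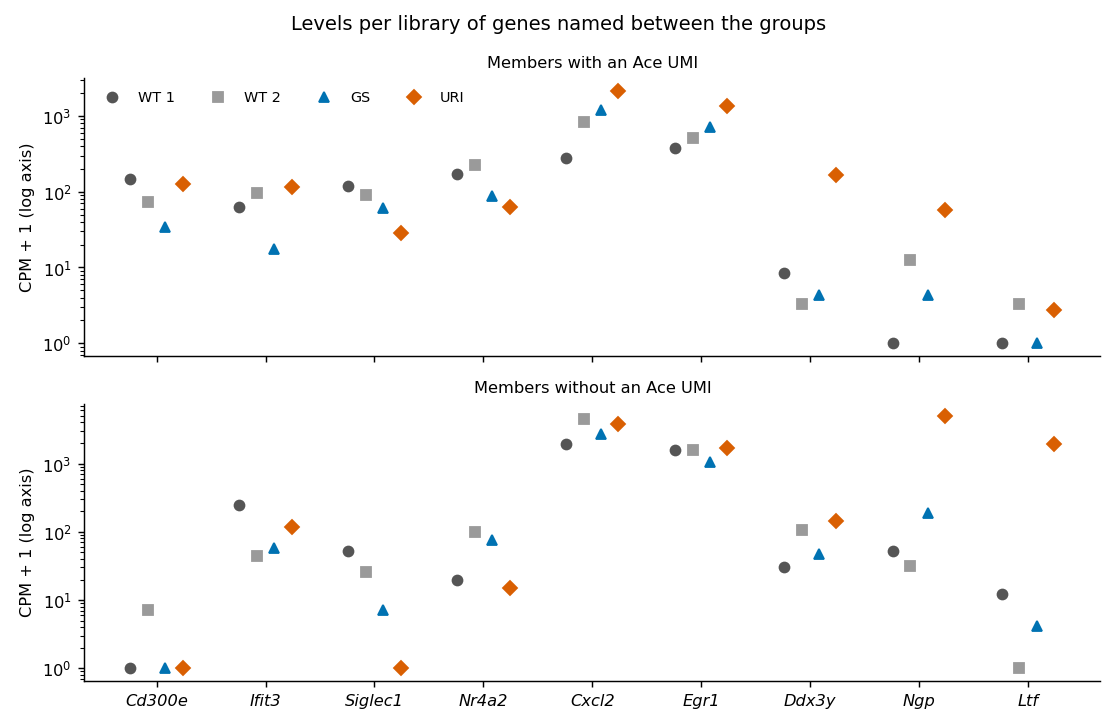
Levels of 9 genes named between the groups (CPM + 1, log axis) in members with an Ace UMI (top) and without (bottom), 1 symbol per library. Ltf stands high in URI in the lower panel only, Ngp reaches 4952 CPM in URI below and 55.8 CPM above, Ddx3y stands high in URI in both, and Cd300e and Ifit3 are lowest in GS in the upper panel (33.5 and 16.8 CPM).

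The lists are described for URI by counts. Of 21 patrolling identity genes 8 lay below both WT values and 6 above (median -0.18), where 30.9% and 27.3% of all genes did. Of 23 cytokine and chemokine genes, 6 lay above both WT values and 3 below in all members (median 0.02). In members with Ace the counts were 13 and 4 of 23 (median 0.35), where 30.1% and 29.9% of all genes did. Without Ace they were 3 and 7 of 18 (median -0.29, against -0.03 over all genes). The share over all genes was not computed without Ace, so the counts with and without Ace are not compared. Of 24 type I interferon response genes 7 lay below both and 2 above (median -0.10), and of 14 genes of glutamine and glutamate handling 4 and 4 (median 0.00). In GS the same glutamine list had 7 of 14 below both WT values and 1 above (median -0.19), where 36.3% and 27.2% of all genes did. Glul itself was at -0.03 ± 0.42 in GS and Uri1 at 0.11 ± 0.56 in URI (log2, edgeR adjusted p = 1.00 for both).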

How the data were processed

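Single-cell RNA was measured in 4 libraries of sorted liver CD45+ cells (2 WT, 1 GS, 1 URI), each a pool of 5 mice, with a fixed-RNA probe assay. The deposited files hold UMI counts per probe target and barcode, unnormalized, per the file headers. Cell Ranger 8.0.0 and mm10 are named in the submitters' processing notes. All listed barcodes were deposited, so cells were kept at 500 UMIs, 250 genes and at most 10% mitochondrial UMIs, and 59 probe entries marked DEPRECATED were left out.

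Counts were summed per library and gate, scaled to 1000000, and tested with edgeR 4.0.16 (quasi-likelihood, TMM, low-count filter, Benjamini-Hochberg at 0.05) in R 4.3.3, with DESeq2 1.42.0 as an alternative. The standard error is the log2 fold change divided by the root of F. Gates were compared with library as a block (3 residual degrees of freedom), groups with 1. On simulated data for members against the classical gate (7750 genes), 69% of 2-fold and 99% of 4-fold changes were recovered. Thinning drew 1000 UMIs per cell. Shares carry exact 95% binomial intervals. Scrublet's automatic threshold marked 0% of WT replicate 1, so the median threshold of the other libraries was used there, a choice made after seeing the data. Doublets were kept except in an alternative.

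Named genes were, between gates, the 12 largest called rises and falls with a mean of at least 20 CPM and 1 direction in every library, and between groups the 5 largest called per direction, or the smallest p at 50 CPM or more. The 15 gene lists and 15 marker lists, like the members, were chosen with earlier results of these data known. The division by Ace, the 1% neutrophil limit and the removal of shared droplet barcodes were added after seeing the data. Some genes counted in the lists are not reported by name here.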

Additional observations from a re-analysis of the deposited data

How the results depend on the processing

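Of 357 values for named genes between members and the classical gate, 339 kept their direction and side of the threshold, 14 no longer passed and 4 reversed. All 276 values against dendritic cells held. An alternative kept only cells of at least 1000 UMIs, and every member had at least 1002. Values at that limit repeat the main fit for dendritic cells, GS and URI, and are no check. No GS gene passed in the main fit, so the GS values that held mostly stayed uncalled. Of 123 GS values 108 held, 5 passed only under an alternative, 7 moved and 3 reversed, and of 119 URI values 101 held, 7 no longer passed, 4 passed only under an alternative and 7 moved. Between members and the classical gate, 1285 genes were called in all. Calls were 643 at 3 or more UMIs of Ace and Treml4, 559 with DESeq2, 654 with an Ace UMI, 551 under the 1% neutrophil limit, 467 without the library block and 467 after thinning. They were 879 to 983 when 1 library was left out. Of the called genes 68.3% were higher, against 57.3% with an Ace UMI, 82.3% with DESeq2 and 46.0% against all other Csf1r cells. For patrolling monocytes against dendritic cells 2663 were called, 865 after thinning and 2107 to 2167 when 1 library was left out. For GS, calls went from 0 to 2 at 3 or more UMIs, 4 without Ace, 6 with no low-count filter and 3 with other lineage genes at 0. For URI, 13 calls became 6 at 3 or more UMIs, 4 with DESeq2, 6 with doublets left out, 0 with an Ace UMI and 2 after thinning. The log2 share of GS was -1.02 with Ace, 0.39 without and -0.89 under the neutrophil limit, and that of URI 0.48 when gated after thinning. Reversed values were Sycp2 at -0.70 and Rufy4 at -0.37 against all other Csf1r cells, and, for Ngp, patrolling against classical monocytes, 4.50 with other lineage genes at 0 and 0.012 under the neutrophil limit. In GS they were Ngp at -0.81 with Ace and -0.25 under that limit, and Rgs1 at -0.044 without shared droplet barcodes. The cause was not tested. No paired analysis was possible because the groups share only replicate number 1. Dendritic comparisons with other lineage genes at 0, without shared droplets or under the neutrophil limit were not run, as a library held under 10 cells. Leaving out a WT library leaves the group comparisons with no residual degrees of freedom and no test.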
